A study of Mus musculus with 6 samples.

Results

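The genes described here encode oxygen- and 2-oxoglutarate-dependent dioxygenases other than Egln1, Egln2, Egln3 and Hif1an, which hydroxylate the hypoxia-inducible factors (HIF). They were taken by a list of gene names with no threshold on measured values, though the list was drawn up with earlier results of these data known: 42 of the 54532 named genes in the count table, of which 40 had enough reads to be tested. The samples were kidneys of mice that had breathed 8% oxygen for 12 h, 3 libraries from wild-type (WT) mice and 3 from mice labelled Lpar3-/-, which lack lysophosphatidic acid receptor 3 according to the labels. All 6 libraries came from hypoxic animals, so the comparison is between genotypes and cannot show a response to oxygen. The labels give no strain, sex, age or altered part of Lpar3. The Y-linked genes Kdm5d (283 to 343 counts) and Uty (399 to 545 counts) had reads in every library, so each held RNA of male kidney. The labels also do not say that each library was a separate animal. The p-values below thus measure only how these libraries spread, which may in part be technical.

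These enzymes hold a ferrous iron in their active site and use molecular oxygen and 2-oxoglutarate, an intermediate of the citric acid cycle, to oxidise a substrate, releasing succinate and carbon dioxide. Because oxygen is a co-substrate, their activity can depend on oxygen supply, and several of their genes are known targets of HIF. Substrates differ by family: methylated histones for most Kdm and Phf proteins, 5-methylcytosine in DNA for the Tet enzymes, alkylated or methylated nucleic acids for the AlkB family, procollagen for the P4ha and Plod enzymes, and small metabolites for Bbox1, Tmlhe and Phyh.

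Total counts ran from 16011804 to 17991881 per library. Markers of the kidney were abundant throughout: Umod, the protein of the thick ascending limb, had 2212 to 2675 CPM (reads scaled to library size) and Slc34a1, the proximal tubule phosphate carrier, 2502 to 2816 CPM. The targeted gene did not set the groups apart, with 645, 634 and 577 Lpar3 counts in WT against 672, 592 and 580, and counts per gene cannot show a deleted exon. The Lpar3-/- group is therefore named by its label throughout, and every direction rests on the labels. Summed marker levels did not overlap between the groups for macrophages (138.7 to 212.7 CPM in WT against 115.3 to 136.4) and for kidney segments (8819 to 9167 against 9359 to 9815 CPM). The kidney segment sum weighs abundant genes most. As a mean of log2(CPM + 1) relative to all libraries, the 10 segment markers overlapped (-0.068 to 0.045 in WT against -0.037 to 0.060). Of the 3 segment markers with an unadjusted edgeR p under 0.05, 2 were lower and 1 higher in the libraries labelled Lpar3-/-. The other summed levels were as follows. Summed levels overlapped for adipocytes (183.4 to 345 CPM in WT against 124.2 to 197.6), for fibroblasts and pericytes and for inflammation. Gene by gene, all 11 macrophage and all 7 inflammation markers tested had negative fold changes, where 51.1% of all genes did. Of these markers, 5 and 4 were lower at an unadjusted edgeR p under 0.05, against 5.21% of all genes. By adjusted p edgeR called 0 in either list. WT replicate 2 was the highest library for macrophages (212.7 CPM), fibroblasts and pericytes (448.7 CPM, 281.2 to 346.5 in the others) and inflammation (164 CPM, 53.7 to 76.3 in the others).

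Levels between genes are compared in FPKM, which corrects for gene length. Phyh, the peroxisomal enzyme that starts the breakdown of branched phytanic acid, was the most abundant gene of the group at 295 FPKM over the 6 libraries and held 55.6% of the summed FPKM of the 42 genes. Alkbh5, an eraser of N6-methyladenosine in mRNA, followed at 42.6 FPKM, and Alkbh7, a mitochondrial member of its family, at 16.1 FPKM. Below them P4ha1, Tmlhe, Kdm4a and Plod2 lay between 10.5 and 11.9 FPKM, and most histone demethylases between 1.64 (Kdm5b) and 8.68 FPKM (Phf2). Tet3 (2.67 FPKM) and Tet2 (2.54 FPKM) had similar levels, whereas Tet1 had 0.264 FPKM. Kdm4d and P4ha3 were the 2 genes not tested: Kdm4d had 1, 1 and 5 counts in WT against 0, 2 and 1, and P4ha3 had 0, 1 and 0 against 2, 0 and 0. The summed FPKM of the 42 genes was 532, 550 and 511 in WT against 522, 564 and 507 in the libraries labelled Lpar3-/-, and the groups overlapped.

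**Figure D1:**
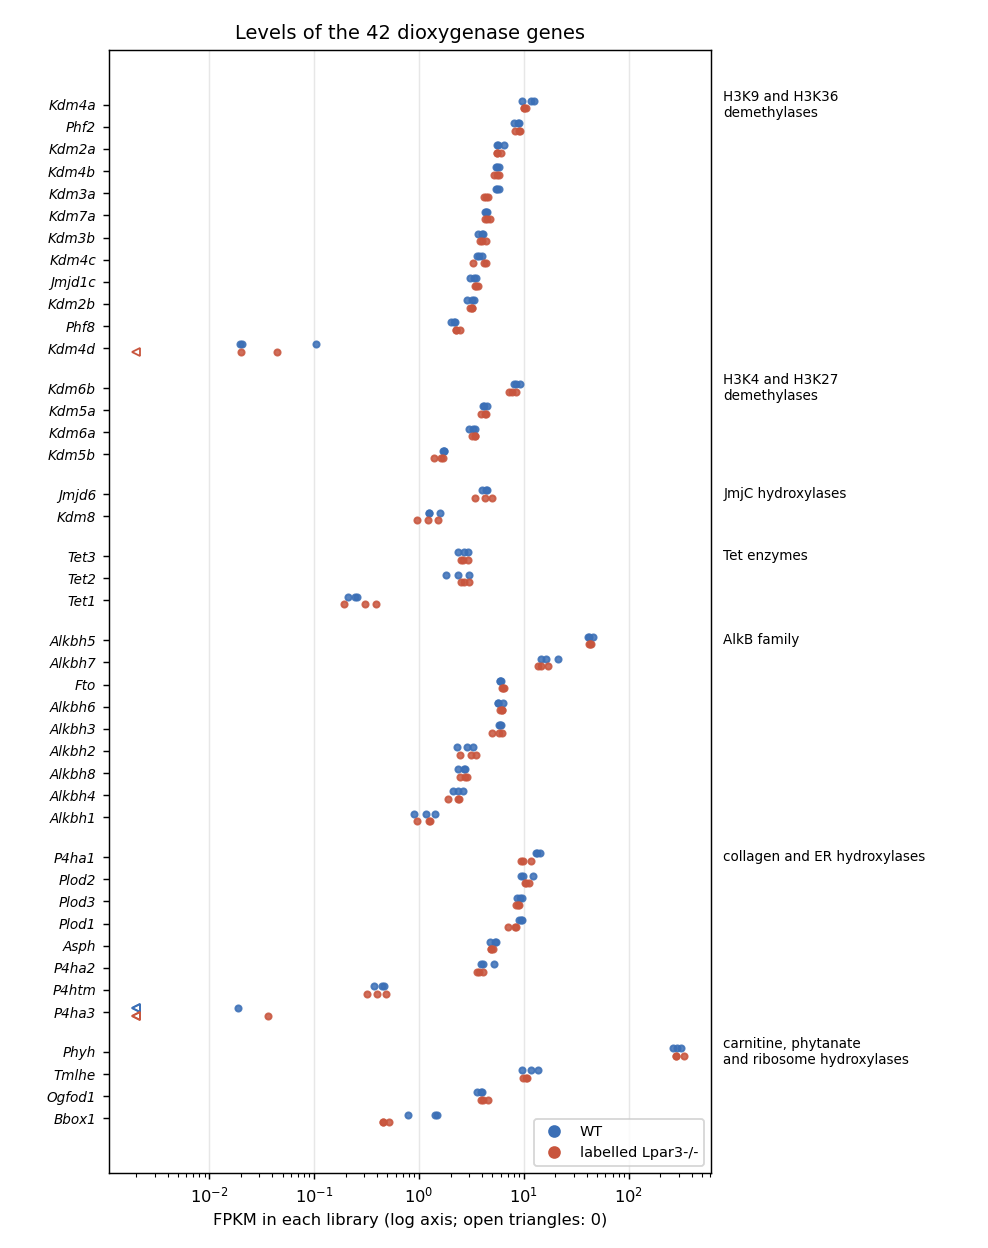
FPKM of each of the 42 genes in each library on a log axis, WT in blue and the libraries labelled Lpar3-/- in red, genes grouped by class and ordered by mean level. Phyh stands highest at 295 FPKM, Kdm4d and P4ha3 lie near 0, and the groups overlap for most genes.

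The comparison asked whether expression of these enzymes differs between hypoxic kidneys of the genotypes. None of the 40 genes passed the test over all genes (edgeR, p adjusted by Benjamini-Hochberg under 0.05), where 0.374% of the 15225 genes tested did so. The lowest adjusted p among them was 0.0588, for Bbox1. At an adjusted p under 0.1, 2 of the 40 passed (Bbox1 and Kdm3a), where 0.86% of all genes did. At an unadjusted p under 0.05 there were 4 genes (10%), namely Bbox1, Kdm3a, P4ha1 and Plod1, against 9.18% of all genes, so that the count lies near the background. All 4 had lower levels in the libraries labelled Lpar3-/-, a direction and threshold met by 5.21% of all genes. None was higher at that threshold, where 3.97% of all genes were. DESeq2 called Bbox1, Kdm3a and P4ha1 (adjusted p = 0.00278, 0.0418 and 0.0356), against 1.08% of all genes, while limma-voom called 0 of the 40 and 0.361% of all genes. The calls of these 3 genes therefore depended on the test.

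By sign the genes were divided. Of the 40, 22 had a negative log2 fold change and 18 a positive one, and their median was -0.016, beside -0.0036 over all genes tested, of which 51.1% were negative. The mean level of the 40, as log2(CPM + 1) relative to the mean of all libraries, was 0.024, 0.0018 and 0.058 in WT against -0.012, -0.036 and -0.036. All 3 libraries labelled Lpar3-/- thus lay below all 3 WT libraries in this mean, by small amounts. The order of the nearest libraries, WT replicate 2 and labelled Lpar3-/- replicate 1, rests on Bbox1 alone (6.33 against 2.28 CPM). The separation is therefore not a trait of the 40 genes as a set. In 30 of the 40 the fitted level differed by less than 10% between the groups, as it did in 9356 of the 15225 genes tested. The 36 genes with a p of 0.05 or more had fold changes from -0.22 (P4ha2) to 0.32 (Tet1) on the log2 scale, with a median 95% interval of ± 0.20. The 3 libraries of one group lay apart from the 3 of the other for 7 genes, 5 lower and 2 higher in the libraries labelled Lpar3-/-, where 13.7% of all genes did so (7.12% lower and 6.58% higher). Besides the 4 genes above, these were Kdm5b, Phf8 and Fto. Between replicates, the median coefficient of variation of the members was 7.18% in WT and 7.07% in the libraries labelled Lpar3-/-, against 10.4% and 8.08% over all genes tested.

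**Figure D2:**
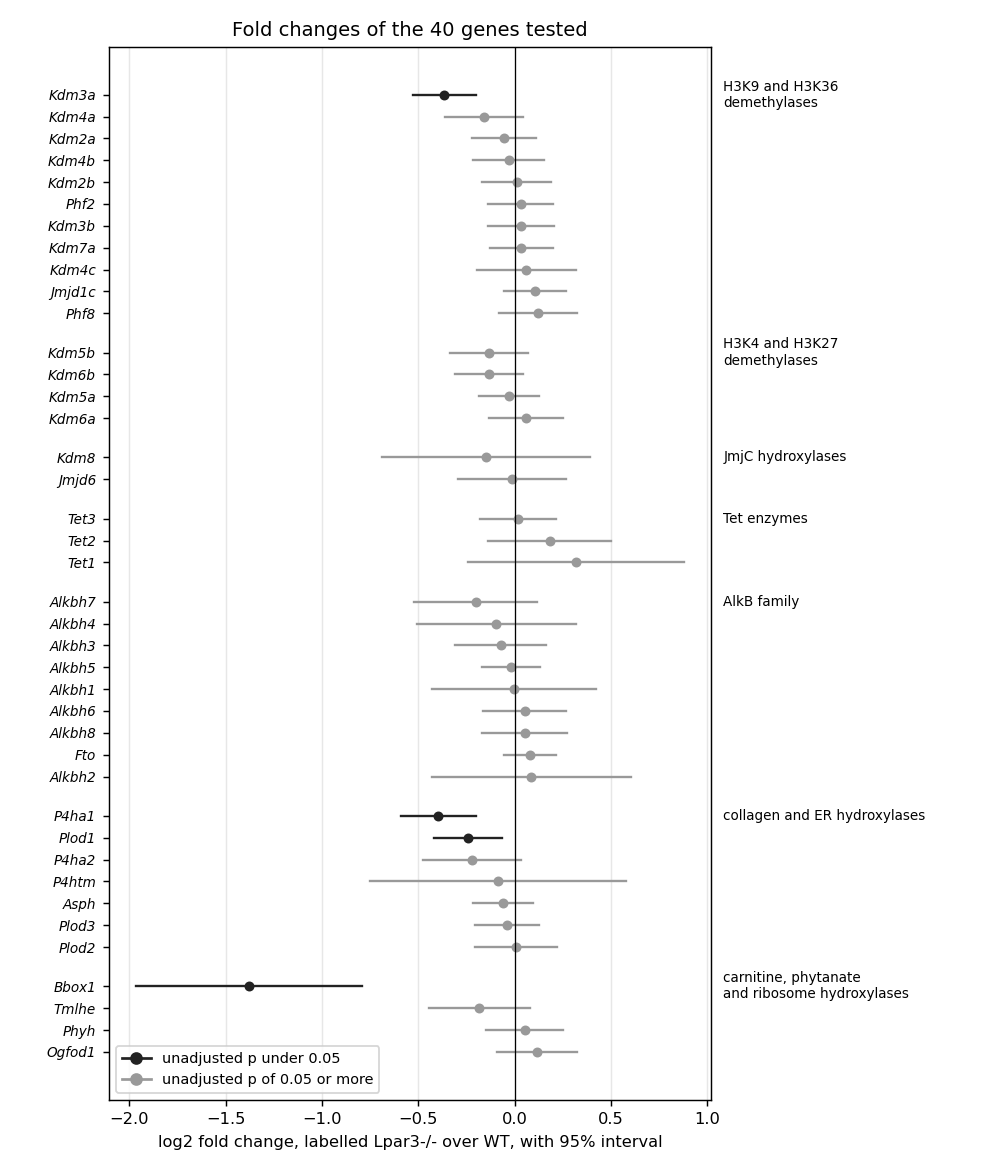
Log2 fold change of each of the 40 genes tested, libraries labelled Lpar3-/- over WT, with its 95% interval from the edgeR fit; black marks an unadjusted p under 0.05. Bbox1 stands apart at -1.38, Kdm3a, P4ha1 and Plod1 lie between -0.40 and -0.24, and the other intervals include 0.

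**Figure D3:**
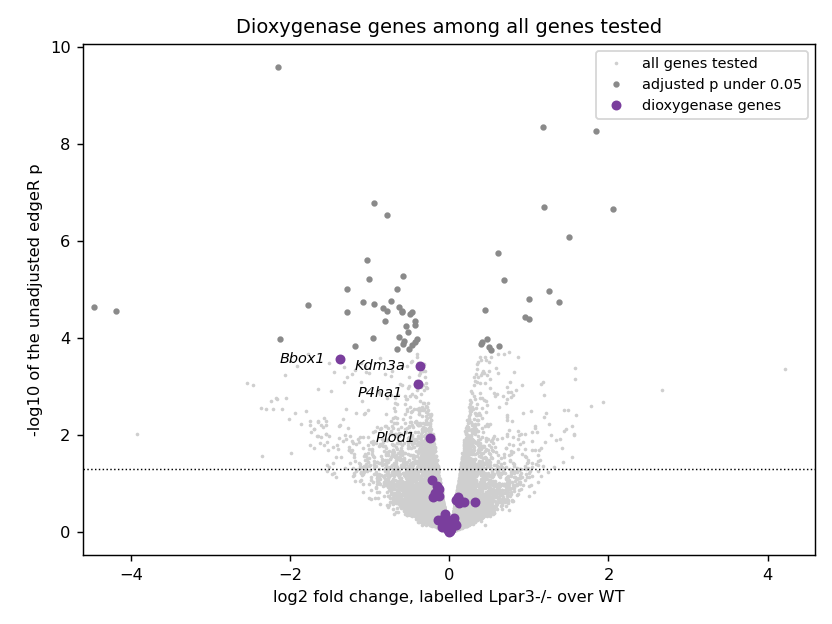
Log2 fold change (horizontal) against -log10 of the unadjusted p from edgeR (vertical) for all 15225 genes tested, with the 40 dioxygenase genes in purple, called genes in dark grey and a dotted line at the 0.05 level. The 4 named genes lie above the line on the left, with Bbox1 farthest out at -1.38.

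The H3K9 and H3K36 demethylases remove methyl groups from lysines 9 and 36 of histone H3. Of the 11 tested, 4 had negative and 7 positive fold changes, with a median of 0.031. Kdm3a, an H3K9 demethylase whose gene is a known HIF target, had 46.2, 44.6 and 48.0 CPM in WT replicates 1 to 3 against 34.6, 37.3 and 35.9 CPM. The highest library labelled Lpar3-/- lay below the lowest WT library, and the spread within each group was small, at 46.2 ± 1.70 and 35.9 ± 1.36 CPM (SD, n = 3 each). On the log2 scale the fold change was -0.36 (SE 0.074, 95% interval -0.53 to -0.20, edgeR adjusted p = 0.0682), a level 22.3% lower. Its close relatives with the same substrate had other values, Kdm3b 55.9 ± 3.505 against 57.2 ± 3.74 CPM and Jmjd1c 59.0 ± 4.34 against 63.4 ± 1.73 CPM. Kdm3a (ENSMUSG00000053470, GRCm38 chromosome 6, 71588972 to 71632990, minus strand) shares no exon with another annotated gene.

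Kdm4a, the most abundant gene of this class, had 68.9, 56.0 and 72.3 CPM in WT against 61.0, 57.7 and 58.0 CPM, with WT replicate 2 below all libraries of the other group. Its log2 fold change was -0.16 (SE 0.092, edgeR adjusted p = 0.669). Without WT replicate 2 the Kdm4a value was -0.26 (edgeR adjusted p = 0.225), and without WT replicate 3 it was -0.082. The HIF targets Kdm4b (27.7 ± 1.203 against 27.1 ± 1.37 CPM) and Kdm4c (21.9 ± 1.34 against 22.9 ± 3.44 CPM) differed by less than their replicates. Kdm2a and Kdm2b, which act mainly on H3K36, had log2 fold changes of -0.053 and 0.011, and Phf2 and Kdm7a of 0.031 and 0.036. Phf8, a demethylase with a PHD finger encoded on the X chromosome, had 20.2, 20.5 and 19.1 CPM in WT against 21.0, 21.1 and 22.9 CPM. Its groups did not overlap, but the log2 fold change of 0.12 did not pass (edgeR adjusted p = 0.777).

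The H3K4 and H3K27 demethylases act on marks of active and of silenced genes. None of the 4 had an unadjusted p under 0.05, and 3 had a negative fold change. Kdm6b, an H3K27 demethylase and the most abundant of them, had 55.9, 58.7 and 64.2 CPM in WT against 58.4, 54.2 and 50.6 CPM, and the groups overlapped (log2 fold change -0.13, SE 0.081). Its X-linked relative Kdm6a had 27.2 ± 1.82 against 28.4 ± 1.29 CPM. Kdm5b, an H3K4 demethylase, was nearly constant in WT at 28.8, 28.7 and 28.6 CPM and had 23.3, 26.8 and 28.4 CPM in the other group. Its log2 fold change was -0.13 (SE 0.092, edgeR adjusted p = 0.748), and replicate 3 of the libraries labelled Lpar3-/- lay just below WT. Kdm5a, which acts on the same mark, had 60.5 ± 2.55 against 59.2 ± 3.00 CPM.

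The JmjC hydroxylases share the fold of the histone demethylases. Jmjd6, a lysyl hydroxylase of splicing proteins, had 334, 345 and 346 counts in WT against 409, 258 and 346 counts. The libraries labelled Lpar3-/- spanned the WT range on both sides (log2 fold change -0.013, SE 0.13). Kdm8 had 2.99, 3.02 and 3.81 CPM against 3.65, 2.90 and 2.31 CPM, and its 95% interval of -0.69 to 0.39 was wide. An exon of Jmjd6 overlaps exons of other genes, so some of its reads may belong to them. Exon overlaps on the same strand were also annotated for Kdm2b, Alkbh3, Alkbh6 and Plod3. Exons of Fto and of several other members overlap genes on the opposite strand.

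Tet enzymes oxidise 5-methylcytosine, the first step in removing DNA methylation. All 3 had positive fold changes, from 0.017 to 0.32, and none an unadjusted p under 0.05. Tet2 had 30.8, 39.7 and 51.2 CPM in WT against 50.3, 45.2 and 42.4 CPM, so that WT alone covered the range of the other group. It lies on chromosome 3, 12.7 Mb from Lpar3, and no other of the 42 genes is annotated on that chromosome (log2 fold change 0.18, SE 0.15). Tet3 had 40.02, 44.9 and 49.1 CPM against 48.6, 42.3 and 44.7 CPM (0.017, SE 0.091). Tet1 had 3.95, 3.79 and 3.27 CPM against 4.73, 2.96 and 6.01 CPM, the largest positive fold change of the 40 genes at 0.32 but with an SE of 0.26. It rested on replicate 3 of the libraries labelled Lpar3-/-: without that library the Tet1 value was 0.074, and without replicate 2 it was 0.55 (edgeR adjusted p = 0.695).

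The AlkB family repairs alkylated bases or removes methyl groups from RNA and DNA. Of the 9 tested, 5 had negative and 4 positive fold changes, with a median of -0.0034 and none at an unadjusted p under 0.05. Alkbh5 had 273, 253 and 250 CPM in WT against 261, 255 and 250 CPM. These ranges overlapped, and the log2 fold change was -0.019 with a 95% interval of -0.17 to 0.13. Fto, which demethylates N6-methyladenosine in RNA, had 78.0, 79.7 and 78.2 CPM against 83.0, 84.96 and 81.7 CPM. All libraries labelled Lpar3-/- lay above WT for Fto, by a small amount (log2 fold change 0.081 with an SE of 0.062, adjusted p = 0.777 by edgeR). Alkbh7 had 21.7, 15.1 and 16.8 CPM against 17.6, 14.99 and 14.04 CPM, with WT replicate 1 high (log2 fold change -0.20, SE 0.15), and without that library the Alkbh7 value was -0.036. The DNA repair enzymes Alkbh2 (3.18 ± 0.538 against 3.38 ± 0.571 CPM) and Alkbh3 (18.8 ± 0.436 against 17.8 ± 1.93 CPM) overlapped between the groups, as did Alkbh8, which modifies transfer RNA (22.9 ± 2.03 against 23.7 ± 1.79 CPM).

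Collagen hydroxylases modify procollagen in the endoplasmic reticulum: the P4ha proteins are catalytic subunits of prolyl 4-hydroxylase, which makes the triple helix stable, and the Plod proteins are lysyl hydroxylases that prepare sites for sugar attachment and crosslinks. The class also holds Asph and P4htm, which are not among these collagen enzymes. With them 7 genes were tested, 6 of them with a negative fold change, and the median was -0.086. Their summed FPKM was 51.4, 49.9 and 55.7 in WT against 48.7, 45.0 and 46.5. P4ha1 had 55.7, 53.5 and 59.2 CPM in WT against 48.2, 39.1 and 40.6 CPM. The groups did not overlap, and replicate 1 of the libraries labelled Lpar3-/- lay nearest to WT. On the log2 scale the fold change was -0.40 (SE 0.090, 95% interval -0.59 to -0.20, edgeR adjusted p = 0.1004), a level 24.0% lower. Plod1 had 65.4, 61.0 and 64.7 CPM against 56.8, 48.1 and 56.6 CPM, again without overlap (log2 fold change -0.24 with an SE of 0.080, adjusted p = 0.341 by edgeR). Without replicate 2 of the libraries labelled Lpar3-/-, the unadjusted edgeR p of Plod1 was 0.0646 in place of 0.0113.

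The other genes of the class did not stand apart. P4ha2, the second catalytic subunit, had 25.9, 24.4 and 32.8 CPM in WT against 22.3, 25.6 and 23.4 CPM (log2 fold change -0.22, SE 0.12). Plod2, the telopeptide lysyl hydroxylase and a known HIF target, had 51.3, 53.4 and 67.0 CPM against 59.9, 56.0 and 56.4 CPM, and its log2 fold change was 0.0060 with a 95% interval of -0.21 to 0.22. Plod3 (41.2 ± 2.37 against 40.1 ± 1.37 CPM), Asph, which hydroxylates aspartate in EGF-like domains (83.5 ± 5.76 against 80.2 ± 2.19 CPM), and the membrane-bound P4htm (1.66 ± 0.184 against 1.57 ± 0.318 CPM) overlapped between the groups. Of 7 members known as HIF targets (Kdm3a, Kdm4b, Kdm4c, P4ha1, P4ha2, Plod1 and Plod2), 5 had negative fold changes, the median was -0.22, and 3 had an unadjusted p under 0.05, all lower. Over all genes 51.1% were negative and 9.18% had such a p (5.21% lower). The list of HIF targets was chosen with results of these libraries known, so its count is no independent evidence of a direction.

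Promoter windows are shown for Bbox1, Kdm3a, P4ha1 and Plod1, the members with an unadjusted edgeR p under 0.05, and for P4ha2. Bbox1 had the lowest p of the members and is the only gene shown that was not listed as a HIF target. The core letters of the HIF response element, ACGTG or GCGTG, are in capitals on either strand. The windows are the 250 bases before a RefSeq start (GRCm38.p6), read 5′ to 3′ on the gene's strand. The P4ha1 window is chr10:59323046-59323295 on the plus strand, that of P4ha2 chr11:54100674-54100923 on the plus strand and that of Plod1 chr4:147936777-147937026 on the minus strand. For Kdm3a 25 bases around its single match are given, chr6:71632930-71632954 on the minus strand, which lie in an annotated first exon. For Bbox1 the 234 bases outside exons are given, chr2:110305742-110305975 on the minus strand, inside the annotated gene span.
P4ha1: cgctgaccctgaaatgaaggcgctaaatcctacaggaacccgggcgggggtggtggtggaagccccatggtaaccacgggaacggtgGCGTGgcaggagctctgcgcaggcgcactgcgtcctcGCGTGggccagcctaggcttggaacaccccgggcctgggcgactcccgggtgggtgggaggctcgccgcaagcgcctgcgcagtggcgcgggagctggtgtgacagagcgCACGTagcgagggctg
P4ha2: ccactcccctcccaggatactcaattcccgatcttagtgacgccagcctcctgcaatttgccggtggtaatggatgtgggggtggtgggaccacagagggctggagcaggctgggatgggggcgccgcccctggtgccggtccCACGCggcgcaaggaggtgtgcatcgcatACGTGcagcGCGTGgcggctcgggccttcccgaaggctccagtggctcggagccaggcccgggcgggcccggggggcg
Plod1: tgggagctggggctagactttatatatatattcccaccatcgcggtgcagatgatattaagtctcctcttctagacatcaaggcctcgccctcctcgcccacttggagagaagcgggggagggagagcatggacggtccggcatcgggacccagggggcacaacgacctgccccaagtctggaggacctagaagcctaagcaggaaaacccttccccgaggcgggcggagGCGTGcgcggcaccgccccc
Kdm3a: gggaggctgtGCGTGtcttgtgaga
Bbox1: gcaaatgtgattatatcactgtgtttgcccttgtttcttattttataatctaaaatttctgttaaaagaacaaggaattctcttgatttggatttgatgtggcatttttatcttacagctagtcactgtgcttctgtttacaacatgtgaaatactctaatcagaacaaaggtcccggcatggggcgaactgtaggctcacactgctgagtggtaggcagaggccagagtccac

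P4ha1 and P4ha2 each held 3 matches, Plod1 had 1 and Bbox1 had 0. Kdm3a had 3 windows, of which 1 held a match. Of all 32851 promoter windows of the same length, 38.6% held at least 1 match and 16.7% held 2 or more. Both strands were counted, so the letters CACGTG count as 2 matches. A window was found for 34 of the 42 genes. Of their 43 windows, some of which overlap, 23 (53.5%) held a match and 16 (37.2%) held 2 or more. The highest number, 6, was in a window of Kdm4c, whose levels overlapped between the groups. P4ha1 and P4ha2 had the same number of matches and log2 fold changes of -0.40 and -0.22. A match describes the letters of the window and is not evidence of binding.

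Collagen genes and fibroblast markers had mostly negative fold changes too. This held for 13 of 15 collagen genes, whose median was -0.28, where 51.1% of all genes were negative. Of the 15, 6 had an unadjusted p under 0.05, all lower, against 9.18% of all genes (5.21% lower). The lowest p were those of Col6a1 (15.1, 29.2 and 20.1 against 14.7, 13.6 and 12.3 CPM), Col3a1 (17.8, 37.3 and 21.0 against 13.7, 17.95 and 14.3 CPM) and Col1a1 (10.1, 29.8 and 16.9 against 9.34, 12.8 and 9.25 CPM). WT replicate 2 was highest for each of these collagens, whereas it was the lowest WT library for P4ha1, Plod1 and Kdm3a. Among 12 fibroblast and pericyte markers 11 had a negative fold change, against 51.1% of all genes. Of the 12, 4 were lower at an unadjusted p under 0.05, against 5.21% of all genes. The lowest log2 fold change was -0.85 in both lists, that of Col1a1 among the collagens. The lists may thus share genes and are not separate observations. None of the markers was at 0 counts in any library. Their summed level ran from 281.2 to 448.7 CPM in WT and from 286 to 312.6 CPM in the other group. Without WT replicate 2 the log2 fold changes of P4ha1 and Plod1 were -0.43 and -0.27. In whole tissue, fewer cells of a type and less RNA per cell cannot be told apart. The part of fibroblasts in these levels was not tested. Of 10 partners in collagen folding none had an unadjusted p under 0.05, and P4hb, the second subunit of prolyl 4-hydroxylase, had 535, 577 and 504 CPM against 547, 535 and 525 CPM.

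The carnitine, phytanate and ribosome hydroxylases held the largest difference of the 42 genes. Bbox1 encodes gamma-butyrobetaine dioxygenase, the last enzyme of carnitine synthesis. It had 117, 107 and 58 counts in WT replicates 1 to 3 against 40, 32 and 35 in the libraries labelled Lpar3-/-, or 6.60, 6.33 and 3.51 CPM against 2.28, 2.02 and 2.02 CPM. The groups did not overlap, the libraries labelled Lpar3-/- lay close together (2.11 ± 0.150 CPM) and the WT libraries spread widely (5.48 ± 1.71 CPM, SD, n = 3 each), with WT replicate 3 nearest to the other group. On the log2 scale the fold change was -1.38 (SE 0.27, 95% interval -1.96 to -0.79, edgeR adjusted p = 0.0588), a 2.60-fold lower level. It ranked 69 of 15225 genes by p. Without WT replicate 3 the fold change was -1.61 and passed (edgeR adjusted p = 0.0177), and without WT replicate 1 it was -1.22 (adjusted p = 0.0962). At 0.855 FPKM Bbox1 was a rare transcript in these kidneys. Bbox1 (ENSMUSG00000041660, GRCm38 chromosome 2, 110262697 to 110314560, minus strand, 8 exons) shares no exon with another annotated gene.

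Adipocyte markers stood lower in the same libraries. Of the 8 markers 7 were tested, all 7 with a negative fold change, 6 with an unadjusted p under 0.05 (5.21% of all genes were lower at that threshold). By adjusted p edgeR called 0 of them and DESeq2 3, where edgeR called 0.374% and DESeq2 1.08% of all genes. Plin1, the perilipin of fat droplets, had 10.9, 7.46 and 6.23 CPM in WT against 2.56, 4.35 and 1.79 CPM, and adipsin (Cfd) 73.4, 70.0 and 34.4 against 9.17, 29.2 and 9.19 CPM. Within WT, Bbox1 and these markers had the same order of libraries, highest in replicate 1 and lowest in replicate 3. In the other group replicate 2 was highest for Plin1 and Cfd and had 2.02 CPM of Bbox1, level with replicate 3. Ucp1 was at 0 counts in 1 library and was not tested. The part of adipose tissue in the level of Bbox1 was not tested.

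**Figure D4:**
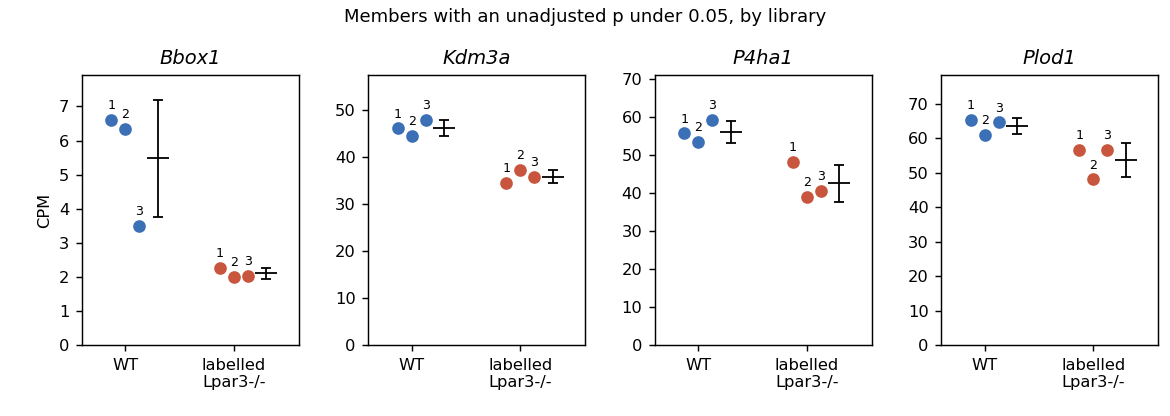
CPM of Bbox1, Kdm3a, P4ha1 and Plod1 in each library (points, numbered by replicate), with the mean and SD of each group as bars at the right of the points. In each panel the 3 libraries labelled Lpar3-/- lie below the 3 WT libraries, and Bbox1 shows the widest spread within WT (3.51 to 6.60 CPM).

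For the other enzymes of this class the groups overlapped. Tmlhe, which starts carnitine synthesis, had 26.5, 31.1 and 21.9 CPM in WT against 24.3, 23.6 and 22.2 CPM (log2 fold change -0.18, SE 0.12). Phyh had 547, 602 and 508 CPM against 542, 641 and 537 CPM, with replicate 2 high in both groups (0.053, SE 0.091, 95% interval -0.15 to 0.25). Ogfod1, a prolyl hydroxylase of a ribosomal protein, had 22.5 ± 1.27 against 24.4 ± 1.89 CPM. Among 12 partners in carnitine and phytanate metabolism, Acox3, a peroxisomal oxidase of branched acyl-CoA, rose over all genes (254, 262 and 238 CPM to 319, 344 and 328 CPM, log2 fold change 0.39 with an SE of 0.071, adjusted p = 0.0405 by edgeR). Its relative Acox2 had 162, 170 and 162 against 188, 184 and 192 CPM and did not pass (edgeR adjusted p = 0.351). Slc22a5, the carnitine transporter, had 443, 460 and 427 against 444, 372 and 401 CPM, and Aldh9a1, the dehydrogenase of carnitine synthesis, 700, 773 and 685 against 788, 749 and 729 CPM.

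The co-substrates of these enzymes are made and transported by other proteins. Of 29 genes of 2-oxoglutarate, succinate and fumarate metabolism, 11 had negative and 18 positive fold changes, 3 had an unadjusted p under 0.05 (10.3%, against 9.18% of all genes) and none passed over all genes. Ogdh, the 2-oxoglutarate dehydrogenase that consumes the co-substrate in mitochondria, had 578, 590 and 575 CPM in WT against 488, 476 and 462 CPM. Its groups did not overlap, but the log2 fold change of -0.29 (SE 0.067) did not pass (edgeR adjusted p = 0.105), although DESeq2 called it (adjusted p = 0.00202). Its paralog Ogdhl had 5.59, 3.85 and 4.54 against 3.42, 3.72 and 2.66 CPM. Of 12 genes of ascorbate and iron supply, 2 had an unadjusted p under 0.05. These were Slc23a1, the renal ascorbate transporter, with 303, 324 and 324 against 362, 363 and 365 CPM (log2 fold change 0.20 with an SE of 0.067, adjusted p = 0.349 by edgeR), and Tfrc, the transferrin receptor, with 73.5, 94.0 and 89.8 against 81.7, 71.5 and 59.3 CPM.

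Related enzymes and the writers of the marks were tested alongside. Of the 4 HIF hydroxylases Egln1, Egln2, Egln3 and Hif1an none had an unadjusted p under 0.05, their log2 fold changes running from -0.093 to 0.071. Of 18 tested further 2-oxoglutarate dioxygenases 1 had an unadjusted p under 0.05, the Y-linked Kdm6a relative Uty (26.4 ± 2.71 against 30.8 ± 1.05 CPM, log2 fold change 0.22). Among 19 histone lysine methyltransferases the same held for 1, Ezh2, which writes H3K27 methylation (6.77, 5.68 and 5.63 against 8.37, 7.12 and 8.67 CPM, log2 fold change 0.42 with an SE of 0.16, adjusted p = 0.426 by edgeR). None of 7 tested DNA methyltransferases and Tet partners and none of 12 writers and readers of N6-methyladenosine had an unadjusted p under 0.05. Over these lists and the marker lists Acox3 was the only gene that edgeR called over all genes. DESeq2 also called Ogdh, 3 adipocyte markers and 1 kidney segment marker, and limma-voom 1 kidney segment marker. The shares called over all genes were 0.374% by edgeR, 1.08% by DESeq2 and 0.361% by limma-voom.

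**Figure D5:**
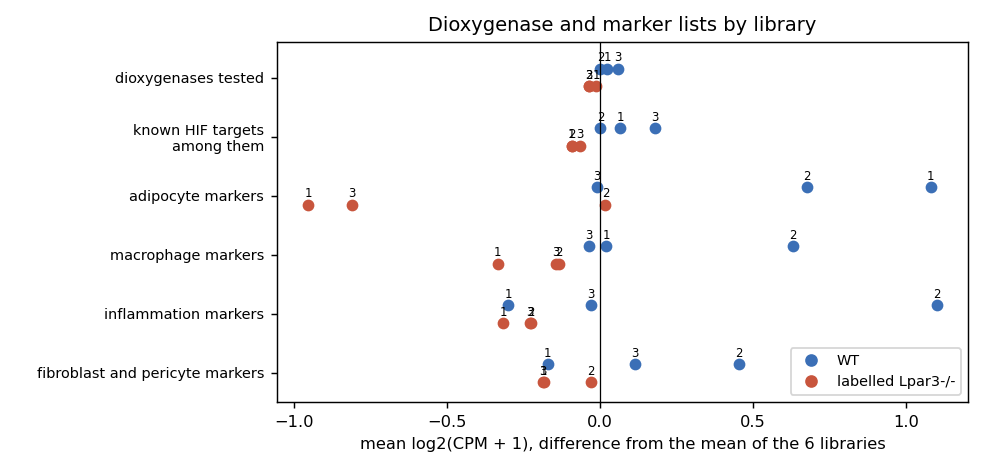
Mean log2(CPM + 1) of each list in each library as the difference from the mean of the 6 libraries, WT in blue and the libraries labelled Lpar3-/- in red, numbered by replicate. The dioxygenases stay within -0.036 to 0.058, whereas adipocyte markers run from -0.95 to 1.08 and inflammation markers reach 1.10 in WT replicate 2.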

How the data were processed

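Kidney poly(A) RNA of 6 libraries was measured by RNA sequencing. The deposited counts are whole reads per gene, and the authors' FPKM values are these counts per gene length times 1 factor per library, to within a relative deviation of 1.78e-08. Per the submitters' processing notes, the build was GRCm38, and the tools named are featureCounts 1.5.0-p3, HISAT2 2.0.5 and DESeq2 1.20.0. No source used here gives the strand setting or annotation release, so reads of overlapping and antisense genes may be shared. Exon overlaps were read from GENCODE annotation whose coordinates equalled those of all 42 genes in the table. Rows without a gene name (0.259% to 0.362% of counts) were left out.

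Groups and replicate numbers came from sample titles. The main test was edgeR 4.0.16 (R 4.3.3), quasi-likelihood F-test, default expression filter, TMM, no covariate, Benjamini-Hochberg over 15225 genes. Fold changes are libraries labelled Lpar3-/- over WT, and CPM use TMM-scaled library sizes. The members and lists were chosen with earlier results of these data known. Values by library are given for members with an unadjusted p under 0.05, for the lowest p and the highest FPKM of each class, and for up to 3 genes of each other list with an unadjusted p under 0.05. Other members and partners shown by library were added after their values were seen. One gene of the metabolism list is not reported here. Alternatives were DESeq2 1.42.0, limma-voom (limma 3.58.1), other normalizations, filters and thresholds, the replicate block, each library left out, and limma on log2(FPKM + pseudocount). On simulated counts of 15014 genes, edgeR recovered 57.6% of 1.5-fold, 75.8% of 2-fold and 98.4% of 4-fold changes, with 10 of 161 calls false. The measured data had 57 calls, and more calls ease the adjusted threshold, so recovery there may be lower. Recovery was pooled over all expression levels and was not given for rare genes such as Bbox1. Changes below 1.5-fold, such as those of Kdm3a (1.29-fold), P4ha1 (1.32-fold) and Plod1 (1.18-fold), were not simulated.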

Additional observations from a re-analysis of the deposited data

How the results depend on the processing

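No member passed in edgeR with the other normalizations, the stricter filter or the replicate block, in limma-voom or in limma on log2(FPKM + pseudocount). DESeq2 called 3 members, the fit without a filter also 3 (Bbox1, Kdm3a and P4ha1 in both), and an adjusted p under 0.1 took in 2. Over all genes, DESeq2 called 1.08%, the fit without a filter 520 of 26645, and an adjusted p under 0.1 took in 0.86%. With 1 library left out the count of members called ran from 0 to 1 (Bbox1 without WT replicate 3), the count at an unadjusted p under 0.05 from 4 to 7 (7 without WT replicate 2), and the median log2 fold change from -0.034 to 0.013 (without WT replicate 3). Over all genes, 12 to 149 were called in these fits, and 50 of 15513 without WT replicate 3. The share of all genes at an unadjusted p under 0.05 was not counted in these fits. Bbox1, Kdm3a, P4ha1 and Plod1 stayed lower in the libraries labelled Lpar3-/- in each of these alternatives. Over them the adjusted p of Bbox1 ran from 5.79e-06 to 0.501, that of Kdm3a from 0.00868 to 0.344, and that of P4ha1 from 0.00122 to 0.472. The fold change of Bbox1 was -0.58 on the log2(FPKM + 1) scale, which shrinks low genes.

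With 1 library left out, between 17 and 25 of the 40 members had a negative fold change. Among those refitted one by one (the lowest p and highest level of each class, and those with an unadjusted p under 0.05), signs turned for 5: Alkbh5 ran from -0.039 to 0.022 (positive without WT replicate 1), Jmjd6 from -0.14 to 0.11 (positive without WT replicate 2, WT replicate 3 or labelled Lpar3-/- replicate 2), Kdm8 from -0.33 to 0.0057 (positive without labelled Lpar3-/- replicate 3), Phyh from -0.034 to 0.12 (negative without WT replicate 3 or labelled Lpar3-/- replicate 2) and Tet3 from -0.055 to 0.095 (negative without WT replicate 1 or labelled Lpar3-/- replicate 1). The 57 genes called over all tested became 171 in DESeq2, 520 without a filter, 131 at an adjusted p under 0.1, and 9, 13 and 4 in limma on log2(FPKM + 1), log2(FPKM + 0.1) and log2(FPKM + 1) without a filter. With 1 library left out they ran from 12 (without labelled Lpar3-/- replicate 1 or 3) to 149 (without WT replicate 1). The cause was not tested.

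With the replicate number as a block, 0 members passed and Bbox1 had a log2 fold change of -1.34 (edgeR adjusted p = 0.0569). The labels give no pairing, and deviations of same-numbered libraries correlated at 0.011, 0.031 and 0.067 across genes. At the depth of Bbox1, Tet1, Kdm8 and P4htm, counting error widens the intervals, and Kdm4d and P4ha3 were too rare to compare.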
